A study of Mus musculus with 4 samples.

Results

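The genes described here encode the subunits of the oxidative phosphorylation machinery of mitochondria. They were chosen by symbol alone: every gene whose symbol starts with Ndufa, Ndufb, Ndufc, Ndufs, Ndufv, Uqcr, Cox4, Cox5, Cox6, Cox7, Cox8 or Atp5, together with Sdha, Sdhb, Sdhc, Sdhd and Cyc1, and without the Ndufaf genes. This gave 83 of the 18194 genes that had a probe set of their own on the array, with 34 in complex I, 4 in complex II, 9 in complex III, 18 in complex IV and 17 in complex V. Ndufa4 and Ndufa4l2 were counted in complex IV, since the Ndufa4 protein is a subunit of cytochrome c oxidase. Cox7a2l carries the name of a cytochrome c oxidase subunit but encodes a factor that joins complexes into supercomplexes, and it was kept outside the complexes.

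Cultures were started from the bone marrow of C57BL/6 mice, given lentivirus and grown for 4 days with GM-CSF and IL-6, which turns bone marrow cells into myeloid-derived suppressor cells (MDSCs). The study asked what the long noncoding RNA lnc-C/EBPβ, which the labels call lncMDSC, does in these cells. The kdNC culture received a lentivirus with a control shRNA, and the kdLNC culture one with an shRNA against the RNA. The oeNC culture received the control virus for overexpression, and the oeLNC culture a virus carrying the RNA. All 4 cultures thus carried a lentivirus, and none was left uninfected. Each group was 1 Affymetrix mouse array of 1 unsorted culture, so there are no replicates, no difference below was tested, and the spread between cultures of a group is unknown. The labels give no number of mice per culture. In such bulk samples, fewer cells of a type and less RNA per cell cannot be told apart. The annotation used here lists lnc-C/EBPβ for no probe set, so the targeted RNA could not be checked.

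Oxidative phosphorylation moves electrons from NADH and succinate to oxygen and stores the energy as a proton gradient. Complex I (NADH dehydrogenase) and complex II (succinate dehydrogenase) take up the electrons, complex III (the cytochrome bc1 complex) passes them to cytochrome c, and complex IV (cytochrome c oxidase) gives them to oxygen. Complex V (ATP synthase) uses the gradient to make ATP. Most subunits are encoded in the nucleus, and their genes are known to share binding sites for the factors GABPA (of the ETS family), NRF1 and YY1 in their promoters. Neutrophil-like cells are known to rely largely on glycolysis, whereas monocytes and macrophages can switch between glycolysis and respiration.

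A promoter is shown for 1 subunit gene of each complex to make that shared sequence visible. RefSeq promoters (build GRCm38.p6, 250 bases before to 50 after the start) were matched by symbol for 67 members, with 72 windows. Each line below gives the 120 bases just before the transcription start, read 5′ to 3′ on the strand of the gene, with capitals for a match to CCGGAAG (ETS) or AAGATGGCG (YY1) on either strand. The windows are Ndufs3 of complex I at chr2:90904722-90904841 (minus strand), Sdhd of complex II at chr9:50603850-50603969 (minus strand), Uqcrh of complex III at chr4:116075071-116075190 (minus strand), Cox6a1 of complex IV at chr5:115348959-115349078 (minus strand) and Atp5j of complex V at chr16:84834977-84835096 (minus strand).
Ndufs3: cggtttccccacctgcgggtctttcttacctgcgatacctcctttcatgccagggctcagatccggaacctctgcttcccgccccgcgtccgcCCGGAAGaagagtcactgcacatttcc
Sdhd: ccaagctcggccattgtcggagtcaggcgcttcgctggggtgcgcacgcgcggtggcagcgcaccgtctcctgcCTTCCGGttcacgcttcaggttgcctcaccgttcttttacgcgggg
Uqcrh: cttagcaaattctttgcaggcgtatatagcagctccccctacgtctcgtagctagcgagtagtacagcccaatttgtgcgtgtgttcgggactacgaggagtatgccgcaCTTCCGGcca
Cox6a1: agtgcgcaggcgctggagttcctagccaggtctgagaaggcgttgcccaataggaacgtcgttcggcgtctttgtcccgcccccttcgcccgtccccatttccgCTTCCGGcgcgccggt
Atp5j: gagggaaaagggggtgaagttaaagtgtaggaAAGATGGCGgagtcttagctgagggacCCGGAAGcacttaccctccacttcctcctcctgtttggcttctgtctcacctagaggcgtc
Over whole windows and both strands, CCGGAAG was found in 17 of the 72 member windows (23.6%), where 8.86% of all promoters and 11.6% of those of protein-coding genes held it. The palindrome CGCATGCG (NRF1) was found in 8 member windows (11.1%, against 1.87% of all promoters and 2.52% of those of protein-coding genes). AAGATGGCG (YY1) was found in 6 member windows (8.33%, against 1.4% and 1.83%). At least 1 of the 3 motifs stood in 34.7% of member windows, in 11.5% of all promoters and in 15% of those of protein-coding genes. The end of an ETS match and the start of a YY1 match can share letters. A match is a stretch of letters and not a measured binding site.

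The log2 of the deposited intensities had a median between 4.17 and 4.24 on each array. Counts below use genes that exceed this median of an array, the filter, on 1 or both arrays of a comparison. Of the 83 members, 79 passed this filter on some array. Those that passed on none were Cox7a1, Cox7b2 and Cox8b, which are isoforms of muscle or testis, and Ndufb4. The myeloid markers measured in these cultures were all above the filter, with S100a8 at 13.32 to 13.43 and S100a9 at 13.32 to 13.49 on the log2 scale over the arrays, and Itgam (CD11b) at 8.41 to 9.03. Ly6g was not analysed here. Arg1, an enzyme of suppressive myeloid cells, stood apart in kdNC, at 8.80 against 10.38 to 11.19 on the other arrays.

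Knockdown of lnc-C/EBPβ left the subunit genes close to level as a group. The median difference of the 83 members, kdLNC minus kdNC, was 0.0015 on the log2 scale, with the middle 50% between -0.12 and 0.09. Over all 11505 genes above the filter the median was -0.048, with the middle 50% between -0.19 and 0.10. Of 78 members above the filter, 1 differed by at least 1.5-fold (1.28%), where 4.33% of all genes did and 2.36% were higher by that much. Most members are bright, and among genes with a mean log2 above 8 the count was 1 of 69 members and 4.56% of all genes. At 1.2-fold, 7 of 78 members (8.97%) and 27% of all genes differed.

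The member past 1.5-fold was Ndufc2, an accessory subunit of the membrane arm of complex I. Its log2 intensity was 9.94 in kdNC against 10.74 in kdLNC, and 10.52 in oeNC against 10.24 in oeLNC. The kdNC array was the lowest and the kdLNC array the highest, with a difference of 0.80, or 1.74-fold. That value comes from the brightest of 4 Ndufc2 probe sets. The next brightest gave 0.017, the third -0.0085 and the dimmest, which passed the filter on kdNC alone, -0.32.

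Next to Ndufc2, the highest knockdown differences belonged to Atp5pb, Ndufa5, Uqcrc2 and Ndufa2. Atp5pb, which encodes a subunit of the peripheral stalk of ATP synthase, was at 10.68 in kdNC against 11.16 in kdLNC, and 10.81 in oeNC against 10.34 in oeLNC. Its kdLNC array was the highest and its oeLNC array the lowest, with differences of 0.47 on knockdown and -0.47 on overexpression. Ndufa5, an accessory subunit of complex I, read 7.48 in kdNC against 7.89 in kdLNC, and 7.30 in oeNC against 6.95 in oeLNC, the same order at both ends. Uqcrc2, a core subunit of complex III, read 8.93, 9.25, 9.42 and 8.92 in kdNC, kdLNC, oeNC and oeLNC, and Ndufa2 differed by 0.32 on knockdown and -0.11 on overexpression. Other probe sets of these genes were flatter: the second of Atp5pb gave 0.011 and -0.066, that of Ndufa5 0.030 and 0.037, and that of Uqcrc2 -0.047 and -0.17.

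Among members above the filter, the low end of the knockdown pair held Ndufb1, Ndufb5, Sdhd, Atp5a1 and Ndufv3. Ndufb1, a small accessory subunit of complex I, had 7.66 in kdNC against 7.27 in kdLNC, and 7.40 in oeNC against 7.03 in oeLNC. It was lower in both kdLNC and oeLNC than in their controls, with differences of -0.38 and -0.37. The other differences at this end were -0.24 for Ndufb5, -0.23 for Sdhd, -0.22 for Atp5a1 and -0.22 for Ndufv3. The direction of Atp5a1 rests on its brightest probe set, since the others above the filter gave 0.20 and 0.26 on knockdown. The second set of Sdhd gave 0.29.

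Overexpression also left the group level in its centre. The median of the members, oeLNC minus oeNC, was -0.0028, with the middle 50% between -0.13 and 0.15. The 11869 genes above the filter had a median of -0.014 and a middle 50% from -0.22 to 0.20. Of 79 members above the filter, 1 was at least 1.5-fold higher (1.27%), where 3.93% of all genes were, and 0 were lower, where 5.38% of all genes were, or 9.32% in both directions together. Among genes with a mean log2 above 8 the count was 0 of 69 members and 5.36% of all genes, and above the 70th percentile of the array 0 of 75 and 8.33%. At 1.2-fold, 15 of 79 members (19%) and 41.2% of all genes differed.

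The member past 1.5-fold was Ndufa4l2, a paralog of Ndufa4 that is known as a gene induced by hypoxia. Its probe set read 4.55 in kdNC against 4.63 in kdLNC, and 4.64 in oeNC against 5.26 in oeLNC. Only the oeLNC array stood apart, with a difference of 0.62 from oeNC, and all 4 values lay near the filter. Cox6a2, the heart and muscle isoform of a complex IV subunit, was at 8.41 in kdNC against 8.48 in kdLNC, and 7.51 in oeNC against 8.10 in oeLNC. Its overexpression difference of 0.58 lay just inside the 1.5-fold limit, and oeNC was the lowest array. Uqcrb, a small subunit of complex III, showed the same low oeNC value, with 11.88, 11.97, 11.50 and 12.00 on kdNC, kdLNC, oeNC and oeLNC, and a difference of 0.49. The second probe set of Uqcrb went the other way on overexpression, at -0.24 with oeLNC lowest, and that of Cox6a2 gave 0.12. Among members above the filter, Atp5j, a stalk subunit of ATP synthase, followed with 0.34 and Cox8a, the widely expressed isoform of a complex IV subunit, with 0.30.

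The lowest overexpression differences above the filter were those of Ndufb10, Uqcrc2, Atp5pb, Ndufb1 and Ndufa5. Ndufb10, an accessory subunit of complex I, was at 7.93 in kdNC against 8.20 in kdLNC, and 8.25 in oeNC against 7.75 in oeLNC, which put oeLNC lowest. The differences of the 5 genes were -0.50, -0.50, -0.47, -0.37 and -0.35 in that order. Among them, Ndufb10, Uqcrc2, Atp5pb and Ndufa5 had a knockdown difference above 0.

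**Figure D1:**
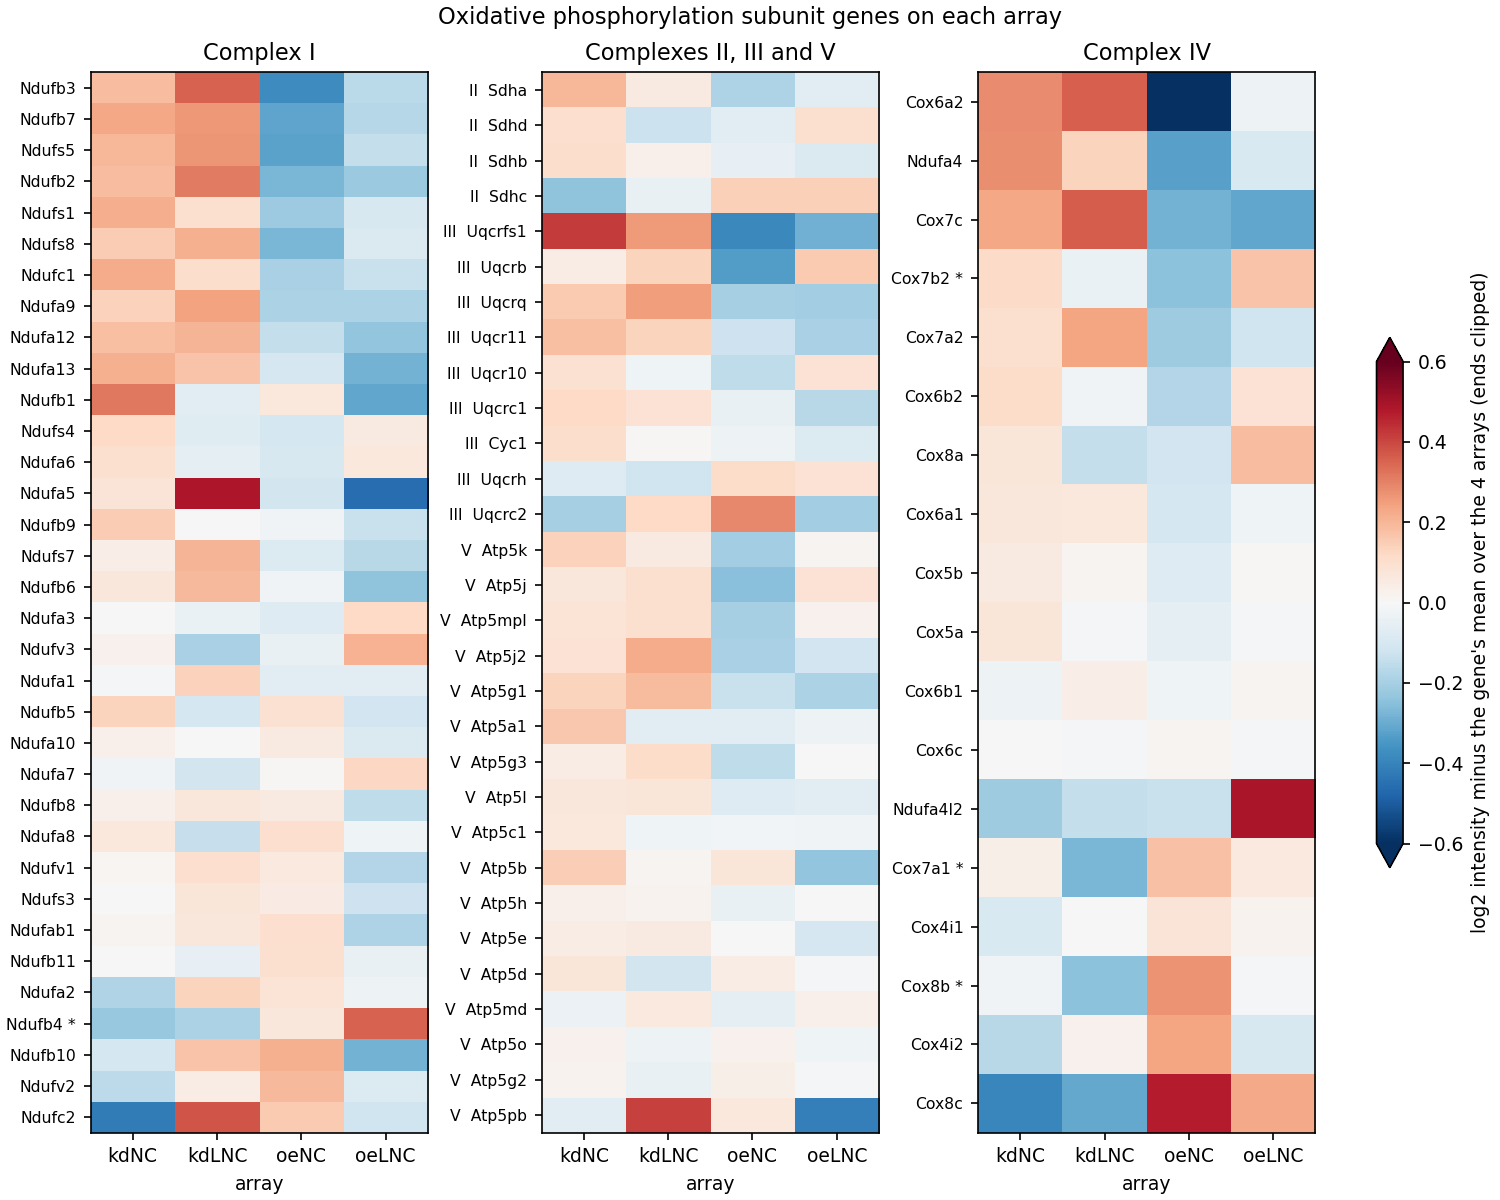
Heat map of 82 of the 83 subunit genes (rows, by complex, without Cox7a2l) on the 4 arrays (columns), coloured by log2 intensity minus the mean of the gene over the arrays and clipped at 0.6. Rows are ordered by the control difference, an asterisk marks the 4 genes below the filter on every array, and the darkest cells include Cox6a2, low in oeNC, Cox8c, high there, and Ndufa5, highest in kdLNC and lowest in oeLNC.

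Read across the arrays, the knockdown and overexpression pairs share no array, so their values can be set side by side. Of 78 members above the filter in both pairs, 22 (28.2%, against 23.8% of all genes) lay above the control in kdLNC and below it in oeLNC. The reverse held for 20 members (25.6%, against 30% of all genes). Across the 83 members the Pearson correlation of both differences was -0.29, and over the 11282 genes that passed in both pairs it was -0.19. Genes measured on the same arrays are not independent, so these are descriptions.

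The mirrored pattern is given here by type of probe set. An ID that ends in _at stands for a probe set designed to match 1 transcript, _a_at for several transcripts of a gene, _s_at for transcripts that may come from several genes, and _x_at for one with probes that may cross-hybridise. Among member probe sets above the filter, at least 0.25 higher in kdLNC and at least 0.25 lower in oeLNC were 1 of 70 _at (1.43%), 7 of 37 _a_at (18.9%), 3 of 18 _s_at (16.7%) and 3 of 28 _x_at (10.7%). In other genes the same shares were 4.94%, 7.79%, 10.9% and 18.4%. The opposite pattern, lower in kdLNC and higher in oeLNC, was held by 2 of the 70 _at sets (2.86%) and by 0 of the other types, and in other genes by 3.77% of _at, 3.05% of _a_at, 3.12% of _s_at and 1.95% of _x_at sets. Over all 153 member probe sets above the filter the correlation of both differences was -0.49.

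Probe sets of single genes also differed in the mirrored pattern, but not always along these types. For Ndufb6, an accessory subunit of complex I, the _a_at set gave 1.08 on knockdown and -0.87 on overexpression, whereas the brighter _at set that represents the gene gave 0.13 and -0.22. Atp5o, a stalk subunit of ATP synthase, had 0.85 and -0.76 at its _x_at set but -0.058 and -0.050 at its brighter _a_at set. Ndufb5, another accessory subunit of complex I, had 0.39 and -0.81 at its _a_at set, against -0.24 and -0.21 at its _at set. Uqcrb of complex III ran the other way by type, with 0.57 and -0.24 at its _at set against 0.091 and 0.49 at its brighter _a_at set. In complex IV, Cox6c read 0.52 and -0.69 at its _a_at set and -0.0090 and -0.027 at its _at set. Cox5a, a nuclear-encoded subunit of the same complex, read 0.54 and -0.36 at its _a_at set and -0.080 and 0.042 at its _at set.

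Such disagreement was found in other genes too. Probe sets of 1 gene lay over 0.5 apart on knockdown for 10 of 45 members with several sets above the filter (22.2%, against 22.9% of all such genes) and on overexpression for 11 of 44 (25%, against 38.1%). The members were Atp5o, Cox5a, Cox6c, Ndufb5, Ndufb6, Ndufc2, Ndufs4, Ndufs8, Sdhd and Uqcrq on knockdown. On overexpression they were Atp5o, Cox6c, Cox8c, Ndufa12, Ndufa3, Ndufb5, Ndufb6, Ndufs8, Sdhd, Uqcrb and Uqcrq. Each of these differences therefore depends on the probe set chosen, and what sets the probe sets apart was not tested.

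**Figure D2:**
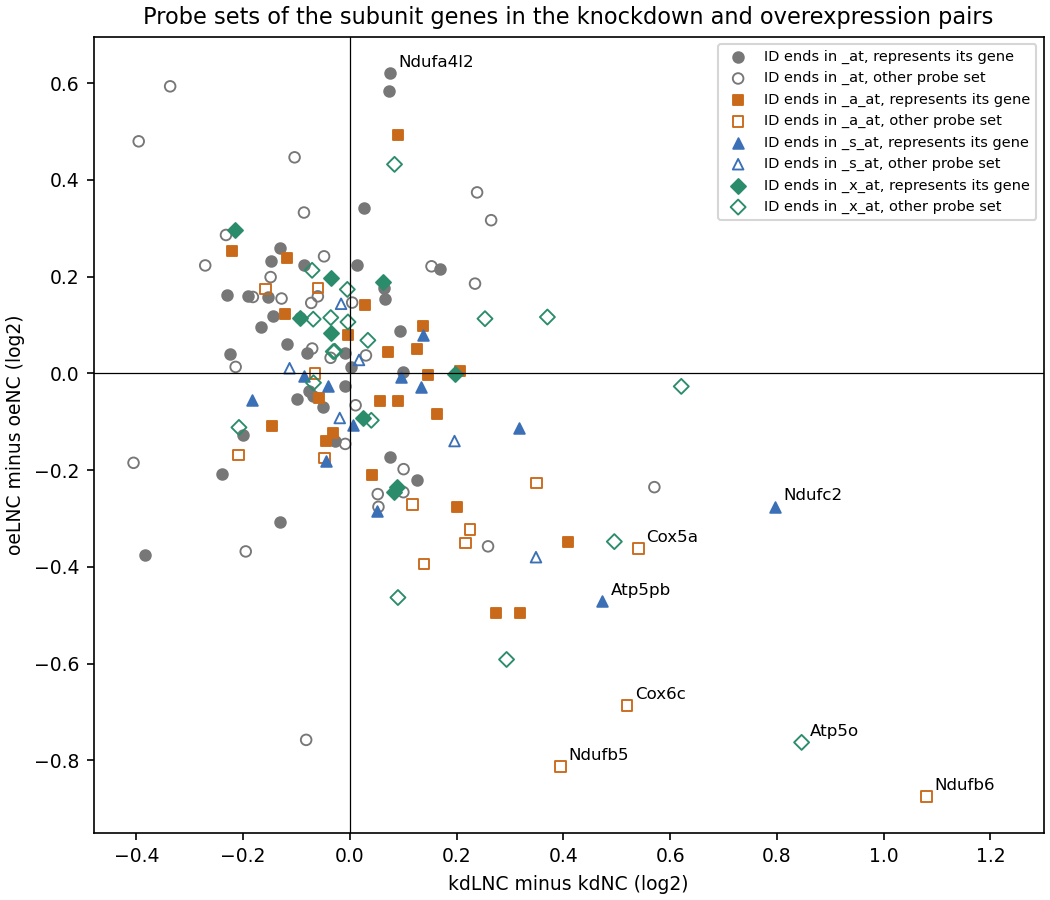
Knockdown difference (x axis, log2) against overexpression difference (y axis, log2) of each subunit probe set above the filter in both pairs. Marker shapes give the type of probe set and filled markers represent their gene; sets at the lower right, such as Ndufb6 (1.08 and -0.87) and Atp5o (0.85 and -0.76), are mostly open markers.

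The 34 genes of complex I had a median of 0.041 on knockdown and -0.10 on overexpression. Its core subunits carry the flavin and the iron-sulfur clusters through which electrons enter. Ndufv1, which binds NADH, differed by 0.089 and -0.23, and its partner Ndufv2 by 0.20 and -0.28. Ndufs1 differed by -0.12 and 0.12, Ndufs3 by 0.075 and -0.17, Ndufs7 by 0.16 and -0.083 and Ndufs8 by 0.062 and 0.19. These core genes had no common direction, and none of them reached 1.5-fold in either pair. The probe sets of Ndufa11 and Ndufs6 also match a second gene symbol, as do the brighter ones of Ndufb4, and the Ndufs6 set read 8.43, 8.43, 8.40 and 8.26 on kdNC, kdLNC, oeNC and oeLNC.

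Complex II, which also works in the citric acid cycle, has 4 subunits, all encoded in the nucleus. The flavoprotein gene Sdha was at 8.90 in kdNC against 8.75 in kdLNC, and 8.51 in oeNC against 8.63 in oeLNC. Sdhb, which carries the iron-sulfur clusters, read 10.04, 9.96, 9.88 and 9.85, the membrane anchor Sdhc 6.98, 7.18, 7.37 and 7.37, and the anchor Sdhd 9.68, 9.45, 9.52 and 9.68 on the same arrays. Sdha and Sdhb were lower on both oe arrays than on both kd arrays, and Sdhc was higher at this probe set. The second probe set of Sdhc read 6.78, 6.92, 6.98 and 6.59, with oeLNC lowest. The complex had medians of -0.11 on knockdown and 0.058 on overexpression, and the latter was -0.12 when all probe sets of a gene were averaged.

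Complex III had medians of -0.041 on knockdown and -0.026 on overexpression over its 9 genes. Uqcrfs1, the Rieske iron-sulfur protein, gave the widest gap between the cultures in this complex, with 8.73 in kdNC against 8.56 in kdLNC, and 7.92 in oeNC against 8.02 in oeLNC. Both oe arrays lay below both kd arrays, whereas the differences within the pairs were -0.17 and 0.096. Cyc1, the haem-carrying subunit that hands electrons to cytochrome c, was nearly flat, with -0.098 on knockdown and -0.052 on overexpression.

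Complex IV had medians of -0.0066 and 0.062 over 18 genes. Cox4i1, Cox5a and Cox5b, chosen for their place near the catalytic core, were close to level, which did not hold for Cox8a, Ndufa4 and Cox7c. Cox4i1 read 11.30 in kdNC against 11.39 in kdLNC, and 11.47 in oeNC against 11.42 in oeLNC. Cox5a read 11.45, 11.37, 11.32 and 11.36 and Cox5b 12.21, 12.17, 12.08 and 12.16 on the same arrays. Over the 4 arrays these 3 genes thus moved by less than 0.2 each at the probe set that represents them.

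The isoform families of complex IV split between widely expressed genes above the filter and tissue-restricted ones near or below it. Cox4i2, the lung isoform, passed the filter on oeNC alone, at 4.28, and Cox6b2, the testis isoform, on kdNC and oeLNC, at 4.31 and 4.29. Cox7a1 at 3.66 to 4.12, Cox8b at 2.83 to 3.34 and Cox7b2 at 1.17 to 1.58 were below it on all arrays, and Cox7b was not analysed here. Their partners Cox6a1, Cox6b1 and Cox7a2 differed by -0.0042, 0.072 and 0.14 on knockdown and by 0.080, 0.044 and 0.097 on overexpression. Restricted isoforms above the filter throughout were Cox6a2, with the values given above, and Cox8c. Cox8c read 6.27 in kdNC against 6.36 in kdLNC, and 7.13 in oeNC against 6.89 in oeLNC, higher on both oe arrays, but its second probe set differed by 0.17 between the controls where this one differed by 0.86. Ndufa4 read 9.89, 9.75, 9.29 and 9.52 on kdNC, kdLNC, oeNC and oeLNC, lowest in oeNC.

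Complex V had medians of 0.0015 and 0.013 over 17 genes. In its catalytic head, the brightest probe set of Atp5a1 differed by -0.22 on knockdown and 0.040 on overexpression, followed by 0.20 and -0.14 at the next and 0.26 and -0.36 at the dimmest. In the same part of the enzyme, Atp5b, which holds the catalytic sites, differed by -0.13 and -0.31. The subunits of the central stalk had differences of -0.087 and -0.0044 for Atp5c1, -0.18 and -0.054 for Atp5d and 0.0054 and -0.11 for Atp5e. Of the 3 genes of the rotor ring, which encode the same mature protein, Atp5g1 differed by 0.056 and -0.056, Atp5g2 by -0.069 and -0.046 and Atp5g3 by 0.066 and 0.15.

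**Figure D3:**
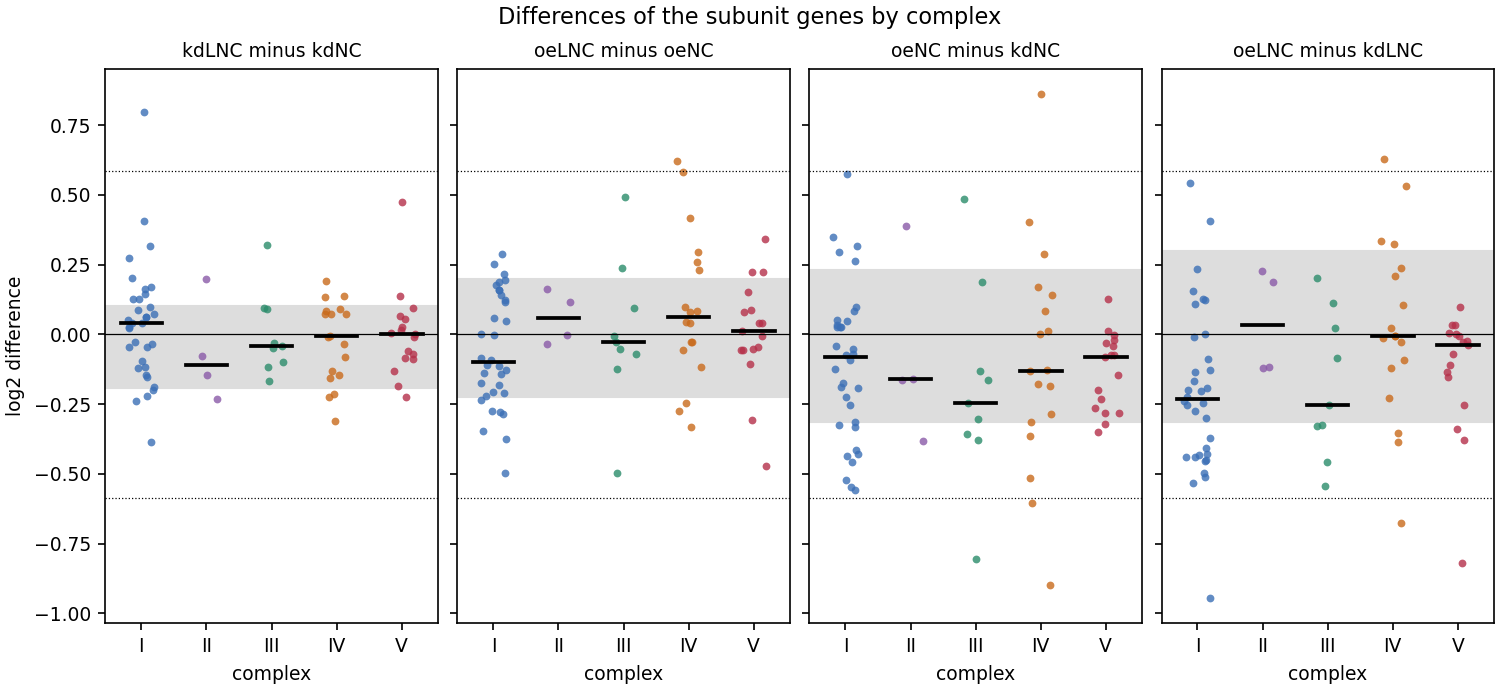
Log2 difference (y axis) of each subunit gene (points) by complex (x axis) in the 4 comparisons, with a bar at the median of each complex. The grey band spans the middle 50% of all genes above the filter and dotted lines mark 1.5-fold; the medians of complexes I and III lie at -0.23 and -0.25 between oeLNC and kdLNC, and all 5 are below 0 between the controls.

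The larger separation was between the cultures of the knockdown and the overexpression experiment. In oeNC against kdNC, both of them controls, 56 of 83 members were lower, where 6244 of the 11723 genes above the filter were. The median of the members was -0.13, where that of all genes above the filter was -0.036. In oeLNC against kdLNC, 57 of 83 members were lower, where 5794 of the 11832 genes above the filter were. The medians were -0.12 for the members and 0.0080 over all genes above the filter. At 1.5-fold, 4 of 79 members (5.06%) differed between the controls, where 21.4% of all genes did, and 4 of 78 (5.13%, against 21.1%) between kdLNC and oeLNC. At 1.2-fold, 32 of 79 members (40.5%) and 52.1% of all genes differed between the controls, and 28 of 78 (35.9%) and 55.9% between kdLNC and oeLNC. These comparisons reuse the arrays of the pairs and are not independent of them. The virus, the shRNA or insert and the culture differ together here and cannot be told apart.

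Both oe arrays lay below both kd arrays for 37 of 79 members (46.8%), where 30.8% of all genes did. The reverse held for 6 members (7.59%), where 26.7% of all genes did. Among genes with a mean log2 above 8, the shares were 47.8% of members against 35.2% of all genes, and 4.35% against 27% in the reverse direction. Further quantile normalization moved the shares of all genes to 25.5% and 34% and gave 46.8% and 8.86% for the members. By complex, the genes with both oe arrays below were 15 of 33 in complex I, 2 of 4 in complex II, 5 of 9 in complex III, 7 of 15 in complex IV and 8 of 17 in complex V. The members with both oe arrays above were Cox4i1, Cox8c, Ndufa4l2, Ndufa7, Sdhc and Uqcrh. The next brightest probe sets of Cox8c, Ndufa7, Sdhc and Uqcrh did not separate the oe from the kd arrays. With the mean of all probe sets, 44.3% of members had both oe arrays below and 7.59% above, against 32.2% and 25.7% of all genes.

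Medians between the controls were -0.082 for complex I, -0.16 for complex II, -0.25 for complex III, -0.13 for complex IV and -0.080 for complex V. In complex V, 15 of 17 genes were lower in oeNC, all of them by less than 0.35, where 6244 of the 11723 genes above the filter were lower. Between oeLNC and kdLNC the medians were -0.23, 0.035, -0.25, -0.0064 and -0.038 in the same order. Of the 34 genes of complex I, 26 were lower in oeLNC, where 5794 of the 11832 genes above the filter were. Between the controls, Cox6a2, Uqcrfs1 and Ndufa4 were at least 1.5-fold lower in oeNC, at -0.90, -0.80 and -0.60, and Cox8c was higher, at 0.86. Between oeLNC and kdLNC, Ndufa5, Atp5pb and Cox7c were lower, at -0.94, -0.82 and -0.68, and Ndufa4l2 was higher, at 0.63. The second probe sets of Ndufa5, Atp5pb and Cox7c gave -0.18, -0.40 and -0.25 in this comparison, and that of Cox7c was below the filter. Between the controls, 9.22% of all genes were higher and 12.2% lower by this much, and between kdLNC and oeLNC 8.4% were higher and 12.7% lower. Among genes with a mean log2 above 8, 3 of 69 members (23.1% of all genes) and 1 of 69 (19.8%) differed in these comparisons. Cox7c, a small subunit of complex IV, read 5.82 in kdNC against 5.95 in kdLNC, and 5.31 in oeNC against 5.28 in oeLNC. A similar step stood in Ndufb3, an accessory subunit of complex I, with 9.28, 9.45, 8.73 and 8.94 on the same arrays.

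Summed markers of B cells, T cells and cycling cells were lower on both oe arrays as well, and those of monocytes and macrophages and of erythroid cells were higher. A sum follows its brightest genes, and single genes differed. Among T cell genes, Cd2 and Cd3g were lower on both oe arrays, but Cd3d was higher and Cd3e was highest in oeLNC. Among monocyte and macrophage genes, Csf1r, F13a1 and Mrc1 were higher on both oe arrays and Cx3cr1 was lower. Ccr2, Irf8, Adgre1 and Cd68 did not separate the oe from the kd arrays. The summed intensity of the B cell genes Cd79a, Cd79b and Ms4a1 (3 of 4 listed were measured, all above the filter) was 2789 in kdNC against 2932 in kdLNC, and 1403 in oeNC against 1338 in oeLNC. The 5 of 6 measured genes of cycling cells summed to 1909, 1726, 1402 and 1112 on the same arrays. The eosinophil genes (4 of 5 measured) summed to 2284 in kdNC and to 1069 to 1224 on the other arrays, the T cell genes (4 of 4) to 240 to 332 and the erythroid genes (3 of 6) to 87 to 118. Mature neutrophil genes (8 of 9 measured) summed to 17942 in kdLNC and to 26136 to 28464 elsewhere, and monocyte and macrophage genes (8 of 9) to 5585 to 6631 over the arrays. As a measure of RNA quality, the 3′ probe set of beta-actin exceeded the 5′ one by 1.61 in kdNC and by 1.96 to 1.97 on the other arrays on the log2 scale, and for Gapdh by 0.51 to 0.69. The part of these in the differences of the subunit genes was not tested.

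Other mitochondrial genes were read from fixed lists. Assembly factors, which build the complexes without staying in them, had medians of -0.053 on knockdown and -0.067 on overexpression over 46 of 49 listed genes, with 0 and 1 past 1.5-fold of 44 above the filter, where 4.33% and 9.32% of all genes were. Between the controls their median was -0.31, with 9 of 44 at least 1.5-fold lower and 2 higher, where 12.2% and 9.22% of all genes were. Ndufaf1, an assembly factor of complex I, went furthest, with 6.61 in kdNC against 6.53 in kdLNC, and 4.59 in oeNC against 4.83 in oeLNC. The 76 genes of the mitochondrial ribosome, which translates the subunits encoded in mitochondrial DNA, had medians of -0.025 and -0.098 within the pairs and of -0.22 between the controls, where 10 of 76 were at least 1.5-fold lower and 2 higher, beside the same 12.2% and 9.22% of all genes. The subunit ND5, which is itself encoded there, was at 9.98 in kdNC against 10.28 in kdLNC, and 10.39 in oeNC against 10.26 in oeLNC, lowest in kdNC.

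The list of electron carriers and coenzyme Q genes had medians of -0.064 on knockdown and -0.20 on overexpression. Of 16 above the filter, 0 and 2 were past 1.5-fold, where 4.33% and 9.32% of all genes were. Most of the list are Coq genes, which serve to make or handle the carrier coenzyme Q and are not carriers themselves. Both genes past 1.5-fold were of this kind, Coq8a at -0.69 and Coq9 at -0.61. Cycs, cytochrome c itself, read 11.00 in kdNC against 11.45 in kdLNC, and 10.95 in oeNC against 10.87 in oeLNC, highest in kdLNC. Citric acid cycle genes had medians of -0.00070 and -0.19, with 0 and 1 of 15 past 1.5-fold, beside the same shares of all genes. The carriers and channels of the mitochondrial membranes had medians of 0.071 and 0.0, with 0 of 8 past 1.5-fold in either pair, beside the same shares of all genes. Between the controls these 3 lists had medians of 0.043, -0.0955 and 0.049 in the order given, so not all mitochondrial lists were lower in oeNC. Between oeLNC and kdLNC the medians were -0.089, -0.33 and -0.26.

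Regulators of mitochondrial biogenesis had medians of 0.033 and -0.19, with 0 and 3 of 15 past 1.5-fold, all 3 lower in oeLNC, where 5.38% of all genes were. Between the controls their median was 0.077, with 3 of 15 at least 1.5-fold higher and 2 lower, where 9.22% and 12.2% of all genes were. Between oeLNC and kdLNC it was -0.23. Pprc1, a coactivator related to PGC-1, was at 6.49 in kdNC against 6.62 in kdLNC, and 5.09 in oeNC against 5.23 in oeLNC, over 2-fold lower on the oe arrays. Gabpa read 7.58, 7.89, 7.12 and 6.95 and Nrf1 6.58, 6.50, 6.48 and 6.56 on the same arrays. The first was thus lower on both oe arrays and the second nearly flat. Other genes of the list went the other way. Yy1 read 9.61, 9.63, 10.27 and 10.10 and Tfb2m 6.22, 6.55, 6.95 and 6.63 on the same arrays, both higher on both oe arrays.

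Glycolysis, the other source of ATP, is set beside the subunit genes. Its 20 measured genes of 22 listed had medians of -0.39 on knockdown and 0.067 on overexpression, with 1 higher and 3 lower past 1.5-fold of 19 on knockdown, where 2.36% and 1.96% of all genes were. Between oeLNC and kdLNC the median was 0.60, and 11 of 19 were at least 1.5-fold higher, where 8.4% of all genes were. The list includes Pdk1 and Bnip3, which are not steps of glycolysis and are among these 11, at 1.19 and 1.33. Bnip3 is also among the 3 lower on knockdown, at -0.59, with Slc2a3 and Aldoc. Slc2a3, a glucose transporter, read 11.05 in kdNC against 9.55 in kdLNC, and 11.78 in oeNC against 12.17 in oeLNC, and was lowest in kdLNC. Of the 8 measured mature neutrophil genes, all but Lcn2 and Mmp8 were also lowest in kdLNC, and their part in this was not tested.

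**Figure D4:**
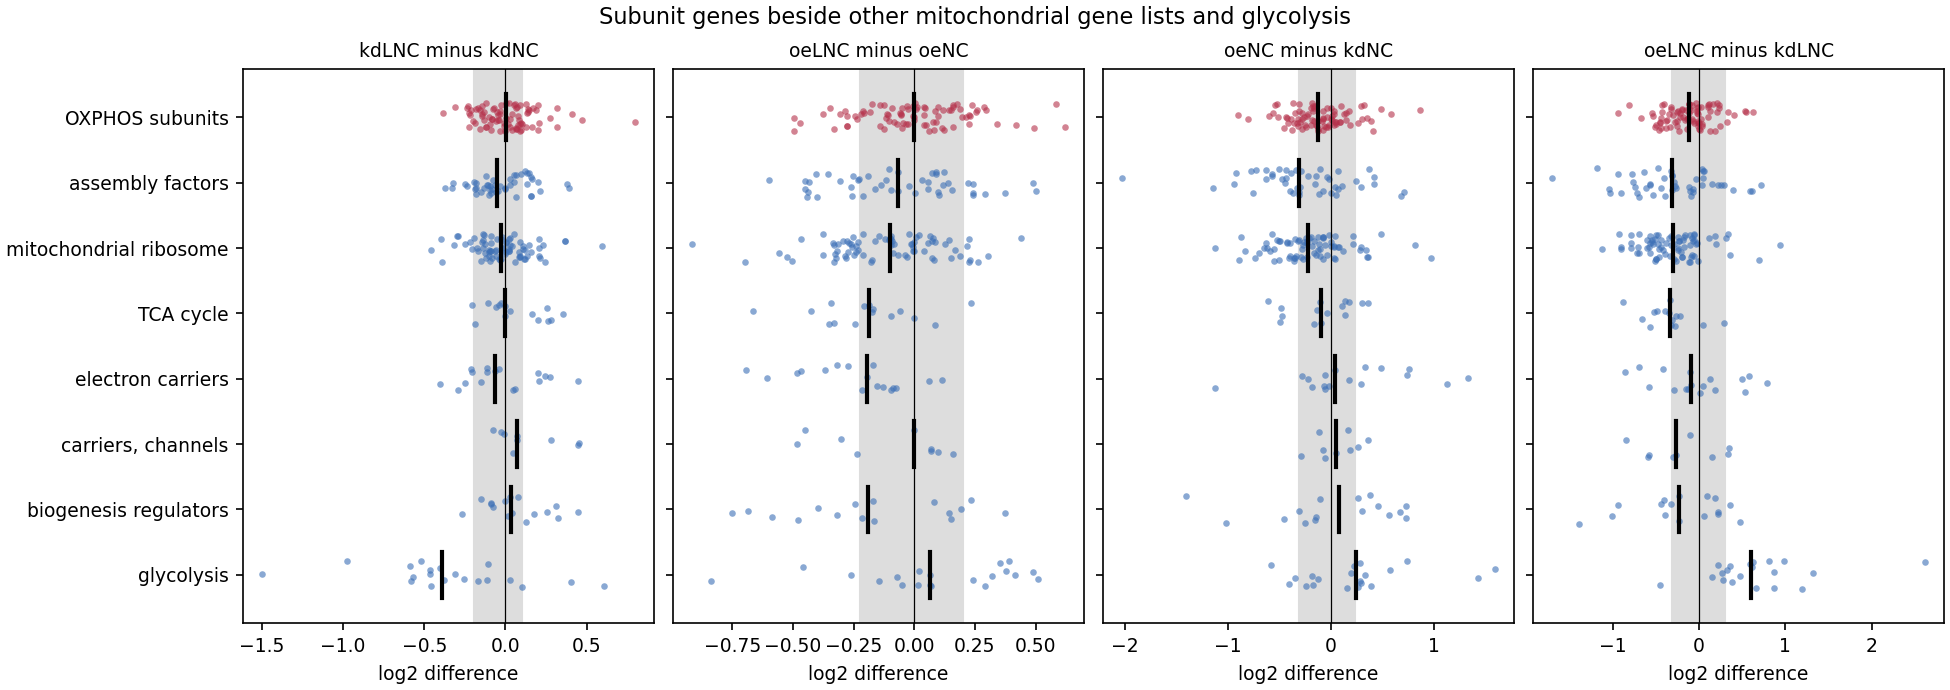
Log2 difference (x axis, its own scale per panel) of each gene (points) of the subunit genes and of 7 other lists (y axis) in the 4 comparisons, with a bar at the median of each list and the middle 50% of all genes above the filter in grey. Subunit genes centre on 0.0015 and -0.0028 in the knockdown and overexpression panels, and glycolysis centres on -0.39 in the knockdown panel and 0.60 between oeLNC and kdLNC.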

How the data were processed

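Total RNA of each culture was hybridised to 1 Affymetrix GeneChip array for the mouse genome. The authors deposited normalized intensity values on a linear scale for 45101 probe sets, and the submitters' processing notes name RMA, with no version given in the sources used here. Log2 values and differences were computed here (Python 3.11.15, numpy 2.4.6, pandas 2.3.3, loess from statsmodels 0.14.6, figures from matplotlib 3.10.9). Of the probe sets, the 34958 with a single symbol in the platform annotation were used, and the 932 with several and 9211 without any were not. Per gene, the brightest of these by mean log2 over the 4 arrays was taken. The 83 members had 170 probe sets, and 49 members had several. All 83 symbols were found in RefSeq. Counts used genes over the 50th percentile on 1 or both arrays compared, and a threshold of 1.5-fold. The methods name limma, which needs more than 1 array per group. No test was run, and precision is limited by the 4 arrays. The calculation was tested on simulated data. Genes named are those past 1.5-fold within a pair, the 5 highest and lowest there, members with catalytic or redox roles, isoform families, genes whose probe sets disagree by over 0.5, and up to 3 genes per other list. Genes past 1.5-fold between the pairs, Ndufb3, Ndufaf1, Pprc1, Gabpa, Nrf1, Yy1, Tfb2m and the genes shown with a promoter were chosen after their values were seen. The members and lists were chosen with earlier results of these data known. Alternatives were other normalizations, probe set rules, filters, controls and fold thresholds.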

Additional observations from a re-analysis of the deposited data

How the results depend on the processing

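No paired analysis was possible because every group consists of 1 array, which also precludes omitting a replicate. Over the alternatives run, the median of the members stayed between -0.033 and 0.047 on knockdown, -0.072 and 0.032 on overexpression, -0.15 and -0.094 between the controls and -0.17 and -0.060 between kdLNC and oeLNC, and only the last 2 kept their sign throughout. The median of complex II on overexpression went from 0.058 to -0.12 with the mean of all probe sets, and 30 of the other 207 medians changed sign, as did 66 of 820 other differences of named genes. The count of members past 1.5-fold on overexpression, 1, became 0 after median centring, with the 70th percentile filter and among genes with a mean log2 above 8 (a limit chosen after seeing the data), and 2 after quantile normalization, after loess and without _x_at and _s_at probe sets. The count on knockdown, 1, became 0 without those probe sets and with the mean of both controls. Between kdLNC and oeLNC the count of 4 became 2 without them and 1 among genes with a mean log2 above 8. At 1.2-fold the counts were 7 on knockdown, 15 on overexpression, 32 between the controls and 28 between kdLNC and oeLNC, and at 2-fold all were 0. Ndufc2 on knockdown was 0.12 with the mean of all probe sets and -0.0085 without _x_at and _s_at sets, where Cox8c on overexpression was 0.32 and Ndufa12 -0.76. The cause was not tested.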

Other observations

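Members with and without a promoter motif were set side by side. The 17 genes with CCGGAAG had a median of 0.0015 on knockdown and 0.043 on overexpression, and the 50 without it -0.035 and -0.016. Between the controls the medians were -0.16 with and -0.13 without this motif. The 6 genes with AAGATGGCG had a median of -0.30 between the controls and -0.29 between kdLNC and oeLNC, where the 61 without it had -0.090 and -0.12. The 8 genes with CGCATGCG had -0.17 between the controls, and the 59 without it -0.12. No test was run on these medians.

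Probe sets shared by a member and another gene were left out of the counts. The brighter set shared by Ndufb4, Ndufb4b and Ndufb4c read 9.20 in kdNC against 9.36 in kdLNC, and 8.97 in oeNC against 8.99 in oeLNC, lower on both oe arrays. The set shared by Ndufa11 and Ndufa11b read 9.22, 9.18, 8.90 and 9.09 on the same arrays, and that shared by Ndufab1 and a pseudogene 8.79, 9.20, 8.97 and 8.52, with differences of 0.41 on knockdown and -0.45 on overexpression.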
